A study of Homo sapiens with 6 samples.

Results

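The genes described here are 10 immediate early transcription factors of the EGR, FOS and JUN families: EGR1, EGR2, EGR3, EGR4, FOS, FOSB, FOSL1, FOSL2, JUN and JUNB. They were taken by symbol from tables of 19923 protein-coding genes, and all 10 were present. RNA-seq of poly(A) RNA was run on Kelly, a human neuroblastoma cell line described in the labels as MYCN-amplified and wild type. There were 3 libraries 72 hours after transfection of a control siRNA (siControl) and 3 after an siRNA against METTL3 (siMETTL3). METTL3 is the enzyme that methylates adenosines within mRNA at the N6 position, and the comparison asks how its depletion changes the transcriptome. All libraries come from the same line and the same transfection procedure, and the labels name no untransfected cells and no second siRNA.

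Immediate early genes are transcribed within minutes of a stimulus, without new protein synthesis, from promoters that are held ready by SRF, the ETS-domain factors it recruits, and CREB. Their mRNAs are short-lived, so their level follows recent signalling through the MAP kinases. EGR proteins are zinc finger transcription factors that bind GC-rich elements and are restrained by the corepressors NAB1 and NAB2. FOS proteins cannot pair with themselves and form the AP-1 factor with a JUN protein, whereas JUN proteins can also pair with each other. In cells of the neural lineage these factors are widely used as markers of activity and growth factor signalling. FOSL1 and FOSL2 are the later, more slowly induced members of the FOS family.

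RefSeq promoter sequences (GRCh38.p14) were at hand for 8 of the 10 members: all but EGR3 and FOSL1. The 250 bases before the transcript start are shown for the members whose RNA passed the test below, 4 that were lower (EGR1, FOS, FOSB, JUN) and 1 that was higher (FOSL2), to show what lies before the starts of the genes the results turn on. Sequences run 5′ to 3′ on the gene's strand, and capitals mark every match to a motif that was searched on both strands.
EGR1 (chr5:138465229-138465478, plus strand): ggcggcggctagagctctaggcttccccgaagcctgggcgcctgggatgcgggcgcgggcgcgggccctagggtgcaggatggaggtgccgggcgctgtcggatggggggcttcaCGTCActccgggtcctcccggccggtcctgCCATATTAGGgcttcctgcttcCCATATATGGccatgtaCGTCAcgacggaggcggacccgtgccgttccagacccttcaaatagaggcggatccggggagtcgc
FOS (chr14:75278578-75278827, plus strand): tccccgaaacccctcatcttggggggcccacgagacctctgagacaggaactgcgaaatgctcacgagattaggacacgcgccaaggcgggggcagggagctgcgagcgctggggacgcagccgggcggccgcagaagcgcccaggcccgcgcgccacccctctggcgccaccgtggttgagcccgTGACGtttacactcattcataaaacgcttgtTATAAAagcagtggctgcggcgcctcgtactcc
FOSB (chr19:45467746-45467995, plus strand): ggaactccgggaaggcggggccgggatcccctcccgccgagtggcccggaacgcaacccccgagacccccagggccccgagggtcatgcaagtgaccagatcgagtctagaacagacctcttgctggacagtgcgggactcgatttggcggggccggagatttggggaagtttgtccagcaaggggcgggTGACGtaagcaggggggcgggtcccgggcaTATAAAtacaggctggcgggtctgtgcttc
JUN (chr1:58784048-58784297, minus strand): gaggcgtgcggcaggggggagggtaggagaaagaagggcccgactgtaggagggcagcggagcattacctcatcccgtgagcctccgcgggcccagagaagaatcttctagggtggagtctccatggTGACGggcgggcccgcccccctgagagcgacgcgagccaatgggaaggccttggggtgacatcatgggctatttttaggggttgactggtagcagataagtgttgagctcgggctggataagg
FOSL2 (chr2:28392608-28392857, plus strand): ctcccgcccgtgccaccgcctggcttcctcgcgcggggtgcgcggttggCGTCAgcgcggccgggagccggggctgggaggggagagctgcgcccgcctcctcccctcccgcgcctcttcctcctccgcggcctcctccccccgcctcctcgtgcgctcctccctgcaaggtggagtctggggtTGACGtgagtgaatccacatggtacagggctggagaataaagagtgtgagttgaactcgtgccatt
The motifs were the CArG box (the SRF site), the full cAMP response element TGACGTCA (CRE), its core TGACG, the AP-1 element TGANTCA, the EGR element GCGTGGGCG and the TATA box TATAAA. Every full CRE also contains the core.

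The EGR1 window held 2 CArG boxes, from 105 to 96 and from 83 to 74 bases before the start, where 1.17% of 34788 RefSeq promoter windows of this length held at least 1. EGR2 has 3 RefSeq starts, and the window of the third held 1 CArG box from 71 to 62 bases before it. A TATA box was found in FOS, FOSB and JUNB, in each case within 33 bases of the start, against 10.8% of all windows. The CRE core was found in all 8 members with a sequence, in at least 1 window each, against 21.2% of all windows. This core was added to the search after the sequences had been read, so its count is a description. It lay from 66 to 62 bases before the start in EGR1 and FOSL2, from 64 to 60 in FOS, from 60 to 56 in FOSB and from 123 to 119 in JUN. These distances refer to the RefSeq start. The FOSL2 window begins at 28392608, inside the span used for the counts, which starts at 28392448. The EGR2 windows also lie inside the EGR2 span. The full CRE, the AP-1 element and the EGR element were found in 0 of the 8, against 1.64%, 6.59% and 0.722% of all windows. A missing match says only that these letters are not in this window.

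**Figure D1:**
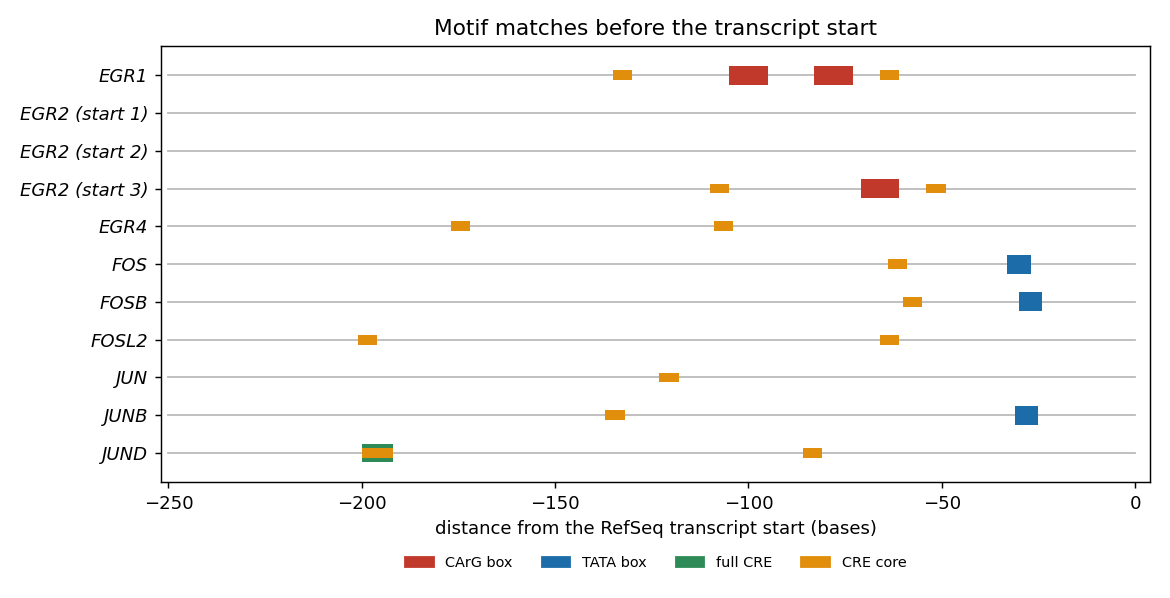
Motif matches in the 250 bases before each RefSeq start, with the distance from the start in bases on the x axis and 1 line per start (EGR2 has 3; JUND, not one of the 10 genes, is shown for comparison). Coloured blocks are matches on either strand; the orange CRE core appears in every gene, the red CArG boxes in EGR1 and EGR2 alone.

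METTL3, the targeted gene, was measured at 53.5, 52.8 and 56.2 CPM (counts scaled to a common library size by TMM) in the siControl libraries and at 33, 31.8 and 34.3 CPM in the siMETTL3 libraries. The METTL3 span overlaps that of TOX4, and reads in the overlap count for both. The METTL3 log2 fold change was -0.71 (approximate standard error, SE, 0.070, edgeR FDR 4.68e-06). The libraries held 15430000 to 21565013 counts. Libraries of siControl differed more among themselves (chi-square per degree of freedom 5.57 to 16.1) than those of siMETTL3 (3.05 to 3.75), and siControl replicate 3 was the shallowest and lay farthest from the others. Of the markers of noradrenergic neuroblastoma, HAND2 was at 375 to 397 CPM in siControl and 527 to 563 CPM in siMETTL3, and DBH, an enzyme of catecholamine synthesis, at 936 to 1155 and 1320.5 to 1411 CPM. The 3 leukocyte markers summed to 0.398 to 0.603 CPM in siControl and to 0.184 to 0.292 CPM in siMETTL3, and the 3 endothelial markers to 4.98 to 5.91 and 6.95 to 9.25 CPM, so that both sums differed between the groups without overlap. The 3 epithelial markers summed to between 5.16 and 7.0 CPM, with KRT5 at 0 counts in every library, and the 5 fibroblast markers to between 110.5 and 131 CPM. Their part in the results below was not tested.

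Of the 10 members, 7 were abundant enough to be tested. EGR1, FOS, FOSB and JUN fell in siMETTL3, FOSL2 rose slightly, and JUNB and FOSL1 did not pass the threshold of a Benjamini-Hochberg adjusted p (FDR) of 0.05 in edgeR's quasi-likelihood test. Over all 15311 tested genes, 37.8% were called, 19.2% lower and 18.6% higher. The siMETTL3 values lay entirely below the siControl values in 4 tested members, against 25.1% of all tested genes, and entirely above them in 1, against 24.8%. The libraries are bulk, so a fall in part of the cells and a smaller fall in every cell cannot be told apart. The labels do not say whether replicates were separate cultures, so the p-values measure the spread between these libraries only.

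**Figure D2:**
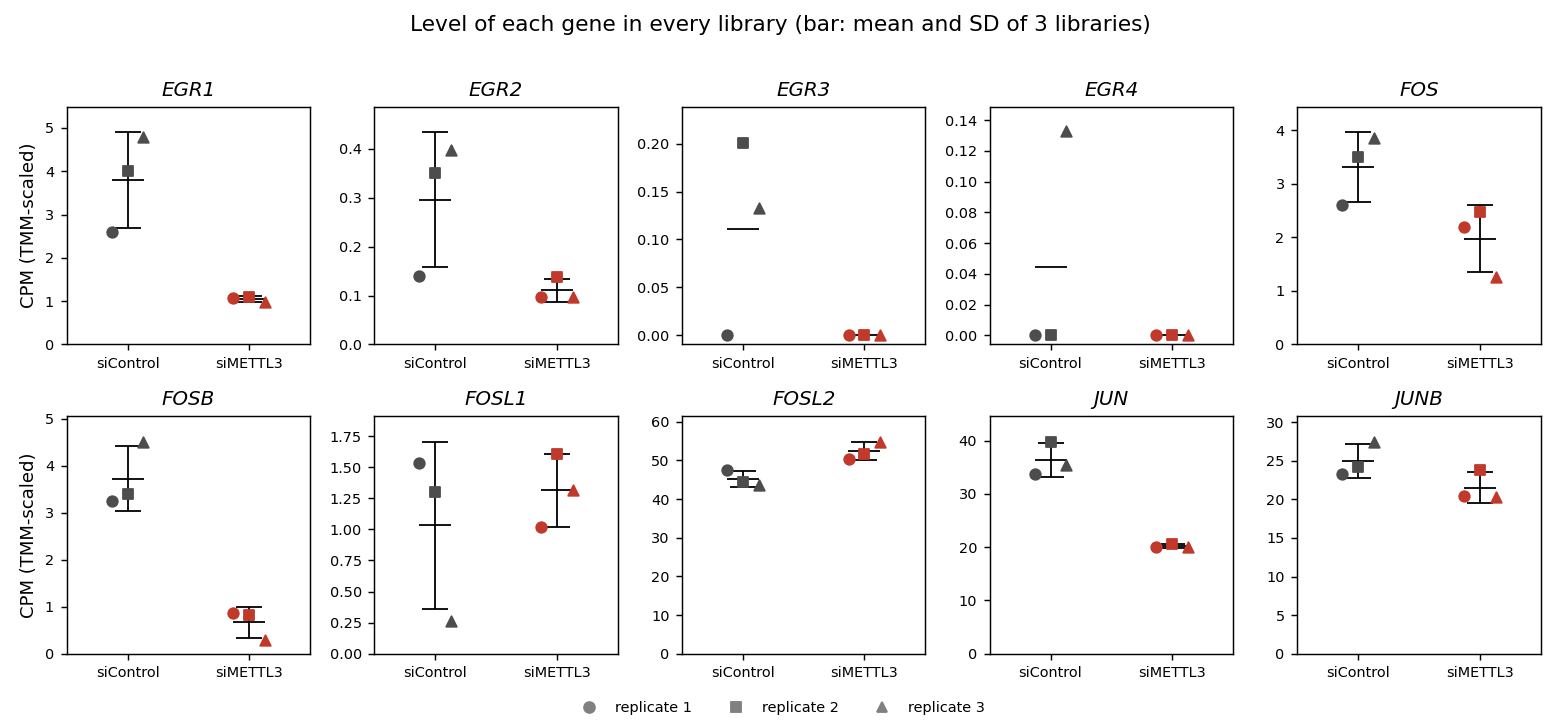
Level of each of the 10 genes in CPM (y axis, linear, own scale per gene) in the 3 siControl (grey) and 3 siMETTL3 (red) libraries; horizontal marks are means and bars are SD over 3 libraries, with no SD drawn for EGR3 and EGR4. Among the tested genes, EGR1, FOS, FOSB and JUN show no overlap between groups, with siMETTL3 below, and FOSL2 shows none with siMETTL3 above. EGR2, which was not tested, also shows siMETTL3 below, at 2 to 7 counts per library.

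EGR1, the most widely expressed EGR factor (chromosome 5, 138465479 to 138469303), had 56, 80 and 72 raw counts in siControl and 22, 24 and 20 in siMETTL3. Scaled for depth, these were 2.60, 4.0 and 4.78 CPM against 1.07, 1.10 and 0.974 CPM. Every siMETTL3 library lay below every siControl library, and the siMETTL3 libraries lay close together while the siControl libraries were spread. The siControl SD of 1.11 CPM was 2.45 times what counting gives if counts are independent. Every EGR1 and FOSB count was even, so counts may come in pairs, which would make this ratio too large. EGR1 fell from 3.79 ± 1.11 to 1.05 ± 0.0667 CPM (SD, n = 3), a log2 fold change of -1.83 (SE 0.29; edgeR FDR 0.000239), so that 28.1% of the control level remained. Without siControl replicate 3, in which EGR1 was highest, the log2 fold change was -1.64 (edgeR FDR 4.19e-05). EGR1 was thus among the 0.607% of tested genes that were called at least 2-fold lower.

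The other EGR genes were near the limit of detection and were left out by the filter on low counts. EGR2 (chromosome 10), a regulator of myelination in Schwann cells, had 3, 7 and 6 counts in siControl and 2, 3 and 2 in siMETTL3. Pooled over each group this was 16 counts against 7, or 2.54 times as much in siControl per unit of depth, with a 95% exact binomial counting interval of 0.988 to 7.30. The interval covers counting error only, takes counts as independent and includes equal levels. It would be wider if counts came in pairs. The EGR2 span in the tables is 107905 bases long, against 2979 bases of exon, so its few reads need not come from EGR2 mRNA. EGR3 (chromosome 8), a factor needed for muscle spindles, had 0, 4 and 2 counts in siControl and 0 in each siMETTL3 library. That allows up to 0.0477 CPM over the siMETTL3 group (3 counts), or more if counts came in pairs. Of the 6 EGR3 counts in siControl, 4 came from replicate 2. Replicate 1 was at 0 like every siMETTL3 library, so no fold is given. EGR4 (chromosome 2) had 2 counts in siControl replicate 3 and 0 in the other 5 libraries, at or under the same limit in both groups. With no filter on low counts, edgeR gave FDR values of 0.294 for EGR2, 0.160 for EGR3 and 0.444 for EGR4.

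FOSB (chromosome 19, 45467995 to 45475179), a FOS protein induced by neuronal activity, had 70, 68 and 68 counts in siControl and 18, 18 and 6 in siMETTL3. The scaled levels were 3.25, 3.40 and 4.51 CPM against 0.875, 0.827 and 0.292 CPM, so that the groups lay well apart and siMETTL3 replicate 3 was lowest. FOSB fell from 3.72 ± 0.691 to 0.665 ± 0.323 CPM (SD, n = 3), a log2 fold change of -2.46 (SE 0.34; edgeR FDR 8.20e-05), leaving 18.2% of the control level. This was the most negative fold change of the 15311 tested genes. Over the 14 fits that filtered low counts and tested it, this one included, FOSB stood in place 1 in 9 and in place 10 at the most, in the fit without siMETTL3 replicate 3 (log2 fold change -2.11). With no filter it stood in place 390 of 18636, and in place 8 among the genes called lower. It passed the filter through siControl: 2 of the 3 siMETTL3 libraries were above the cutoff of 0.490 CPM of the raw library size. The whole FOSB span lies inside that of ERCC1, a DNA repair gene on the opposite strand, and the counts ignore strand, so reads of FOSB and ERCC1 cannot be told apart there. ERCC1 had 5649 to 6776 counts per library and did not pass the threshold (log2 fold change -0.13, edgeR FDR 0.672).

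FOS (chromosome 14, 75278826 to 75282230), the founding member of the family, was measured at 2.60, 3.50 and 3.85 CPM in siControl and at 2.19, 2.48 and 1.27 CPM in siMETTL3, from 56, 70 and 58 against 45, 54 and 26 counts. The groups did not overlap, but siMETTL3 replicate 2 came close to siControl replicate 1. FOS fell from 3.32 ± 0.647 to 1.98 ± 0.634 CPM (SD, n = 3), a log2 fold change of -0.73 (SE 0.27) at an edgeR FDR of 0.0498, just under the threshold. The call was lost without siControl replicate 2 or 3 (edgeR FDR 0.138 and 0.0768) and without siMETTL3 replicate 1 or 3 (edgeR FDR 0.0850 and 0.183). It was also lost under other scalings and in limma-voom, with the direction kept throughout, and the FDR went from 0.0166 to 0.183 over all alternatives.

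FOSL1 (chromosome 11, 65892049 to 65900573), also known as FRA1, had 33, 26 and 4 counts in siControl and 21, 35 and 27 in siMETTL3. The scaled levels were 1.53, 1.30 and 0.265 CPM against 1.02, 1.61 and 1.31 CPM. The groups overlapped, and siControl replicate 3 stood far below the other 5 libraries. The log2 fold change was 0.28 (SE 0.44; edgeR FDR 0.656), and without siControl replicate 3 it was -0.11 (edgeR FDR 0.839). FOSL1 was thus lowest in the library in which EGR1, FOS and FOSB were highest.

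FOSL2 (chromosome 2, 28392448 to 28417317), or FRA2, was measured at 47.6, 44.4 and 43.7 CPM in siControl and at 50.4, 51.7 and 54.9 CPM in siMETTL3. All siMETTL3 libraries lay above all siControl libraries by a small margin. FOSL2 rose from 45.2 ± 2.06 to 52.3 ± 2.30 CPM (SD, n = 3), a log2 fold change of 0.21 (SE 0.069; edgeR FDR 0.0277). Without siControl replicate 2 the edgeR FDR was 0.100, and without siMETTL3 replicate 1, 2 or 3 it was 0.0527, 0.0703 and 0.121, with log2 fold changes between 0.17 and 0.24. Counts cover the whole span of 24870 bases, introns included, of which 6713 are exons of the canonical transcript, so reads of unspliced RNA can contribute more to FOSL2 than to the short members.

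JUN (chromosome 1, 58780791 to 58784047), the founding member of its family and a gene without introns, was measured at 33.8, 39.8 and 35.4 CPM in siControl and at 20.0, 20.6 and 20.0 CPM in siMETTL3. The groups lay far apart, and the siMETTL3 libraries hardly differed. JUN fell from 36.3 ± 3.14 to 20.2 ± 0.378 CPM (SD, n = 3), a log2 fold change of -0.85 (SE 0.087; edgeR FDR 7.37e-06), so that 55.5% of the control level remained. It was past the threshold in all 15 alternatives, with log2 fold changes from -0.90 to -0.78. It rests on 410 to 796 counts per library, the best covered fall among the members.

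JUNB (chromosome 19, 12791486 to 12793315), which is often a weaker activator than JUN, was measured at 23.3, 24.1 and 27.5 CPM in siControl and at 20.4, 23.8 and 20.4 CPM in siMETTL3. The groups overlapped. The log2 fold change was -0.21 (SE 0.099; edgeR FDR 0.113). The edgeR FDR went from 0.0582 to 0.300 over all alternatives. The JUNB span lies wholly inside that of HOOK2 on the other strand, whose log2 fold change was -0.11 (edgeR FDR 0.127), and reads of JUNB and HOOK2 there cannot be told apart.

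JUND, the remaining JUN gene and not among the 10, is expressed steadily in most cells and was measured at 52.9, 69.9 and 77.5 CPM in siControl and at 47, 53.9 and 44.9 CPM in siMETTL3. The groups overlapped by siControl replicate 1 and siMETTL3 replicate 2. JUND passed the threshold at a log2 fold change of -0.45 (SE 0.13; edgeR FDR 0.0214). It did not without siControl replicate 2 or without siMETTL3 replicate 1 or 3 (edgeR FDR 0.0635, 0.0669 and 0.0721).

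**Figure D3:**
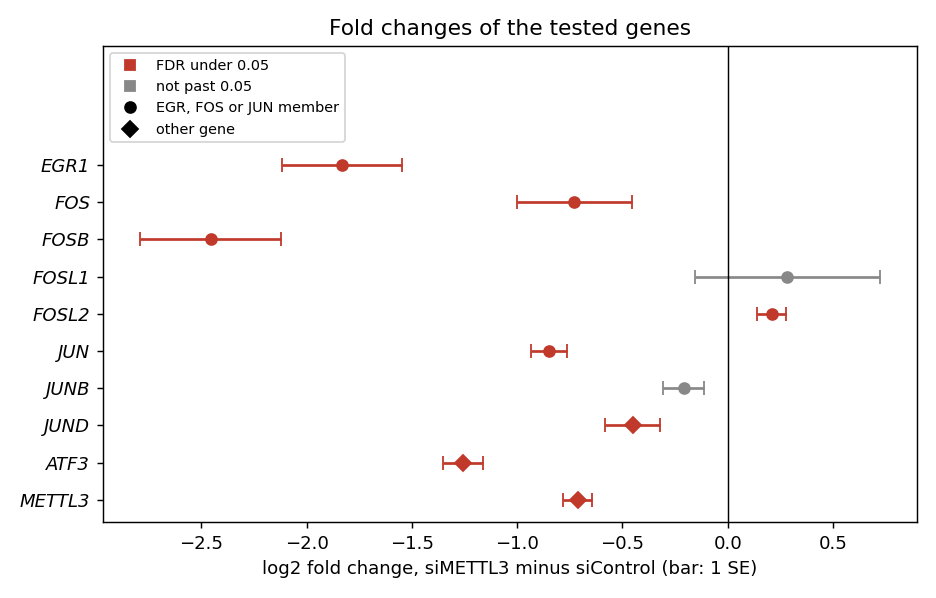
Log2 fold change of siMETTL3 against siControl (x axis) for the 7 tested members (circles) and for JUND, ATF3 and METTL3 (diamonds), with bars of 1 SE and red for an edgeR FDR under 0.05. FOSB (-2.46) and EGR1 (-1.83) lie farthest to the left, and FOSL2 (0.21) is the red point to the right of 0.

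Levels of different genes were compared per kilobase of exon of the canonical GENCODE transcript. In siControl the order was JUNB (13.6 ± 1.20 CPM per kb), JUN (11.2 ± 0.965), FOSL2 (6.74 ± 0.307), FOS (1.58 ± 0.308), EGR1 (1.21 ± 0.353), FOSB (0.986 ± 0.183), FOSL1 (0.606 ± 0.396) and then EGR2, EGR3 and EGR4, all at or below 0.0993 CPM per kb (SD, n = 3). The ranges of FOS and EGR1, of EGR1 and FOSB, of FOSB and FOSL1 and of EGR3 and EGR4 overlapped, and the other neighbours were separate. In siMETTL3, FOSL2 (7.80 ± 0.343 CPM per kb) stood above JUN (6.20 ± 0.116), and FOSB (0.176 ± 0.0857) stood below FOSL1 (0.772 ± 0.172) and EGR1 (0.334 ± 0.0213). JUND was above all members in both groups, at 34.6 ± 6.50 and 25.2 ± 2.44 CPM per kb. Within the EGR family, EGR1 made up 87.2% to 94.7% of the summed exon-scale level in siControl and 88.4% to 91.3% in siMETTL3, and these ranges overlapped. Per kilobase of the whole gene span, 5 of the 10 members held another place in the siControl order. On that scale JUN stayed above FOSL2 in siMETTL3 (6.20 against 2.1 CPM per kb of span).

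The make-up of the AP-1 families differed between the groups. On the exon scale FOSL2 made up 70.3%, 66.5% and 67.2% of the summed FOS family level in siControl and 80.1%, 76.7% and 84.9% in siMETTL3. FOSB made up 8.53%, 9.06% and 12.3% against 2.47%, 2.18% and 0.804%, and FOS 12.2%, 16.7% and 18.9% against 11.1%, 11.7% and 6.25%. For these 3 genes the groups did not overlap, while the shares of FOSL1 did. On the span scale the shares of FOS overlapped too, and those of FOSL2 and FOSB did not. The summed level of the 4 FOS genes was 9.69 to 10.1 CPM per kb of exon in siControl and 9.38 to 10.05 in siMETTL3, and these ranges overlapped. That overlap need not hold per kb of span, where FOSL2 weighs less. On the span scale the mean went from 0.974 to 0.581 for FOS and from 0.518 to 0.0925 for FOSB. It went from 0.121 to 0.154 for FOSL1 and from 1.82 to 2.1 for FOSL2. Each fall was larger than either rise, so the summed means were lower in siMETTL3 on that scale. Within the JUN family, JUN made up 18.9% ± 2.16 in siControl and 14.4% ± 0.905 in siMETTL3 (SD, n = 3), with no overlap. JUNB made up 23.1% ± 1.94 and 27.2% ± 0.394 (SD, n = 3), also with no overlap, and the JUND shares overlapped. The JUNB level itself went from 13.6 to 11.8 CPM per kb, so the larger share does not mean more JUNB RNA. The summed JUN family level went from 59.4 ± 7.98 to 43.2 ± 3.61 CPM per kb (SD, n = 3), with no overlap. No test was run on these shares: the smallest exact two-sided p that 3 against 3 libraries allow is 0.10.

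**Figure D4:**
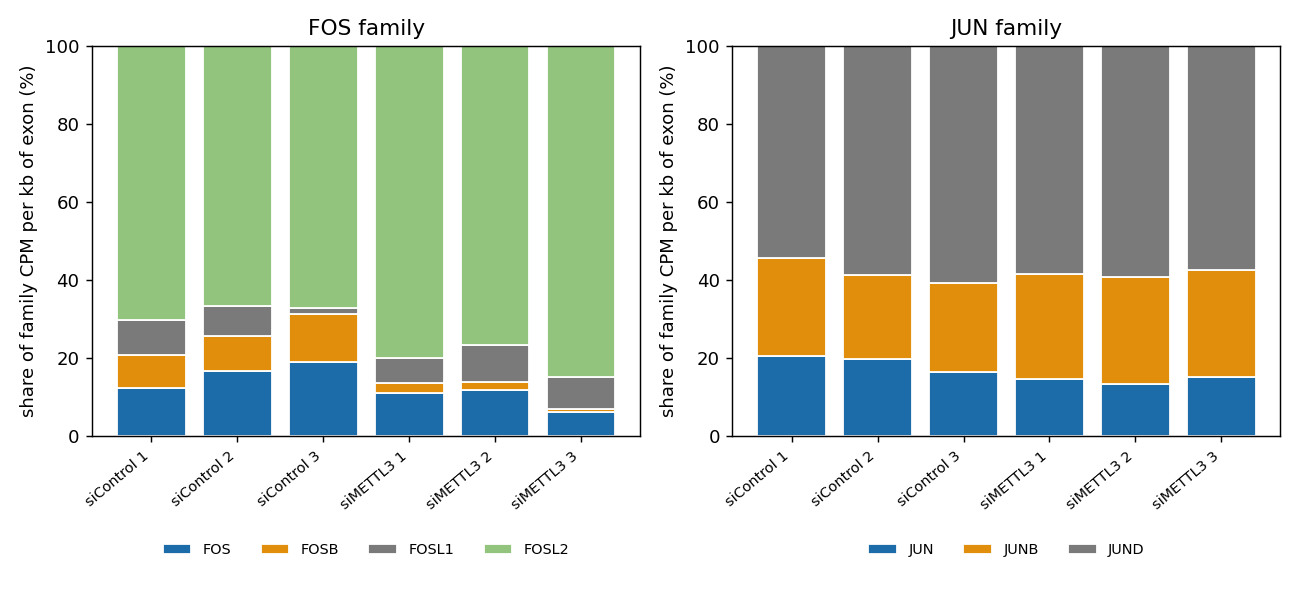
Share of each gene in the summed CPM per kb of exon of its family (y axis, percent), stacked for each of the 6 libraries, for the FOS family (left) and the JUN family with JUND (right). FOSL2 takes 66.5% to 70.3% of the FOS family in siControl and 76.7% to 84.9% in siMETTL3, and JUND takes 54.3% to 60.8% of the JUN family.

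The members varied within groups as well. Among the 7 tested members, siControl replicate 3 was the highest siControl library for 4 and the lowest for 2, and siControl replicate 1 was the lowest for 5. In siMETTL3, replicate 2 was the highest for 5 and replicate 3 the lowest for 5. The observed SD was between 1.17 and 2.71 times the counting SD, except in siMETTL3 for EGR1 (0.298 times) and JUN (0.385 times). There the 3 libraries agreed more closely than counting alone would give. The counting SD takes counts as independent, and would be larger if counts came in pairs. Without siControl replicate 3, the log2 fold changes of FOSB (-2.31), JUN (-0.87) and FOSL2 (0.18) remained past the threshold.

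By the naming rule, the genes most like EGR1 across the 6 libraries were H2AC14, a histone gene, and NIP7 and POP4, which act in ribosomal and transfer RNA maturation (the NIP7 span overlaps COG8), each with a Pearson correlation of log2 CPM of 0.998 to 0.999. Of 11761 genes compared, 987 correlated with EGR1 above 0.95. For FOS the nearest were VCP, an ATPase that extracts ubiquitinated proteins (0.986), SHD (0.974) and RPL39L (0.971), and 19 genes were above 0.95. These values describe 6 libraries that share the group split and their depths.

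The pentamer GGACT, the commonest form of the sequence in which METTL3 methylates adenosine, was counted in the canonical transcript of each member. EGR1 had 0 in 3137 bases, which 8.71% of 14591 tested genes with a transcript share, JUNB had 1, FOS had 3, and FOSB and JUN had 5 each. The density per kilobase was 1.32 in FOSB, 1.43 in FOS, 1.54 in JUN, 1.18 in FOSL1 and 1.04 in FOSL2. The median over the 14591 genes was 0.929. The members that fell thus included EGR1, with none, and FOS, FOSB and JUN, with more than the median. FOSL1, which was not called, and FOSL2, which rose, also had more than the median. JUNB, which was not called either, had 0.546 per kilobase, less than the median. Methylation itself was not measured in these libraries.

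The other bZIP factors and cofactors that share AP-1 sites or partners with the members moved in both directions. Of 19 tested, 5 were lower (26.3%) and 2 were higher (10.5%), beside 19.2% and 18.6% of all tested genes, with a median log2 fold change of -0.020 against -0.0021 for all tested genes. The number higher was 4 without siControl replicate 1, and 1 without siControl replicate 2 or 3 or siMETTL3 replicate 1 or 2. ATF3, a stress-induced immediate early factor that pairs with JUN, was measured at 35.0, 32.6 and 33.3 CPM in siControl and at 12.6, 14.5 and 15.1 CPM in siMETTL3. It fell by 1.26 on the log2 scale (SE 0.094; edgeR FDR 4.19e-07). CREB5, a CRE-binding factor, and NRL, a MAF-family factor whose span overlaps PCK2 and DCAF11, fell by 0.87 and 0.63. MAFA, another MAF-family factor, lies outside the naming rule and is given after its value was seen, as the lowest of the list. Its log2 fold change was -2.08 (SE 0.43, the largest of the list; edgeR FDR 0.00178). BATF3, which pairs with JUN proteins, rose from 3.14 ± 0.186 to 7.22 ± 1.41 CPM (SD, n = 3; log2 fold change 1.20, edgeR FDR 0.000217). CREBBP, a histone acetyltransferase that CREB recruits, rose by 0.22 and lost its call without siControl replicate 2 or 3 or any siMETTL3 replicate (edgeR FDR 0.0606 to 0.127).

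Of the 3 tested partners of the EGR proteins, 1 was called lower (33.3%) and 0 were called higher. Among all tested genes 19.2% were lower and 18.6% higher. All 3 log2 fold changes were negative, with a median of -0.28, and 7695 of the 15311 tested genes were negative. NAB1, an EGR corepressor, was measured at 51.0, 54.6 and 58.3 CPM in siControl and at 43.5, 44.2 and 45.6 CPM in siMETTL3, with no overlap. It fell by 0.30 on the log2 scale (SE 0.070; edgeR FDR 0.00458). NAB2, the related corepressor and itself an EGR target, had a log2 fold change of -0.28 (SE 0.14; edgeR FDR 0.122), and its groups overlapped. Without siControl replicate 3, NAB2 passed the threshold (edgeR FDR 0.00480 and log2 fold change -0.41), and over all alternatives its FDR went up to 0.481. The NAB2 span overlaps that of STAT6.

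Other immediate early genes went both ways. Of 45 tested, 12 were lower (26.7%) and 5 were higher (11.1%), with a median log2 fold change of -0.19, beside 19.2% and 18.6% of all tested genes. PLK2, a polo-like kinase induced by activity and by p53, fell from 31.8 ± 4.89 to 11.1 ± 0.277 CPM (SD, n = 3; log2 fold change -1.51, edgeR FDR 4.78e-07). DUSP1, a phosphatase that switches MAP kinases off, fell by 0.65 on the log2 scale (edgeR FDR 0.000189). Of the orphan nuclear receptors, NR4A3 and NR4A1 rose, while NR4A2, given after its value was seen, did not pass the threshold (log2 fold change 0.023, edgeR FDR 0.959). NR4A3 was measured at 8.39, 7.91 and 8.16 CPM in siControl and at 16.9, 18.7 and 18.9 CPM in siMETTL3 (log2 fold change 1.16, edgeR FDR 3.49e-06), and NR4A1 rose by 0.54 (edgeR FDR 0.00217). ARC, a regulator of synaptic receptors, rose from 6.19 ± 0.387 to 9.51 ± 0.976 CPM (SD, n = 3; log2 fold change 0.62, edgeR FDR 0.00297).

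Among the kinases and transcription factors that act upstream of the members, 35 genes were tested, of which 6 were lower (17.1%) and 9 were higher (25.7%), beside 19.2% and 18.6% of all tested genes, with a median log2 fold change of 0.071. Without siControl replicate 2, or without siMETTL3 replicate 1 or 2, 1 was lower. SRF, the factor that binds the CArG box, was measured at 37.2, 37.7 and 33.1 CPM in siControl and at 34, 33.2 and 25.9 CPM in siMETTL3. The groups overlapped and the log2 fold change was -0.22 (edgeR FDR 0.11). Without siControl replicate 3 the edgeR FDR of SRF was 0.0220, and with the replicate number as a block it was 0.0393. ELK1, an SRF partner activated by ERK, had a log2 fold change of -0.063 (edgeR FDR 0.699), which was 0.013 without siControl replicate 3 and 0.026 without siMETTL3 replicate 1. ELK4, a close relative of ELK1 whose span overlaps MFSD4A, rose from 53.4 ± 3.42 to 84.7 ± 0.791 CPM (SD, n = 3; log2 fold change 0.66, edgeR FDR 4.13e-06). MRTFA, the actin-sensing SRF coactivator, whose span overlaps SGSM3, rose by 0.46, and EP300, an acetyltransferase, rose by 0.37. MAPK11, a p38 kinase, fell by 0.66 on the log2 scale (edgeR FDR 0.000226). MED23, the mediator subunit that ELK1 binds (its span overlaps ARG1), and NRAS fell by 0.27 and 0.19, and each lost its call without siControl replicate 2 or without siMETTL3 replicate 1 or 2 (edgeR FDR 0.0593 to 0.0626 for MED23 and 0.0789 to 0.148 for NRAS).

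Genes described as targets of AP-1 or EGR factors in other systems also went both ways. Of 28 tested, 4 were lower (14.3%) and 9 were higher (32.1%), beside 19.2% and 18.6% of all tested genes, with a median log2 fold change of 0.21. CD44, a hyaluronan receptor, fell from 20.1 ± 2.52 to 8.44 ± 0.754 CPM (SD, n = 3; log2 fold change -1.24, edgeR FDR 5.13e-06). DUSP6, the ERK phosphatase, fell by 1.01 on the log2 scale and DUSP4, a related phosphatase, by 0.34. TH, the rate-limiting enzyme of catecholamine synthesis, whose promoter carries an AP-1 element, rose by 1.52. The growth factor gene IGF2, whose span overlaps INS-IGF2, and VIM, an intermediate filament gene, each rose by 0.84. Of 10 tested genes for turnover of these mRNAs and proteins, 1 was lower (10%) and 1 was higher (10%). Among all tested genes these shares were 19.2% and 18.6%. The median log2 fold change of the turnover genes was 0.044, and 3 of them were higher without siControl replicate 3. KHSRP, which promotes decay of mRNAs with AU-rich elements, fell by 0.23 on the log2 scale (edgeR FDR 0.00961; 0.0564 and 0.0562 without siMETTL3 replicate 1 and 3). ELAVL1, which stabilises such mRNAs, rose by 0.25 (edgeR FDR 0.00906). The lists share 9 genes, so their counts are not independent.

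**Figure D5:**
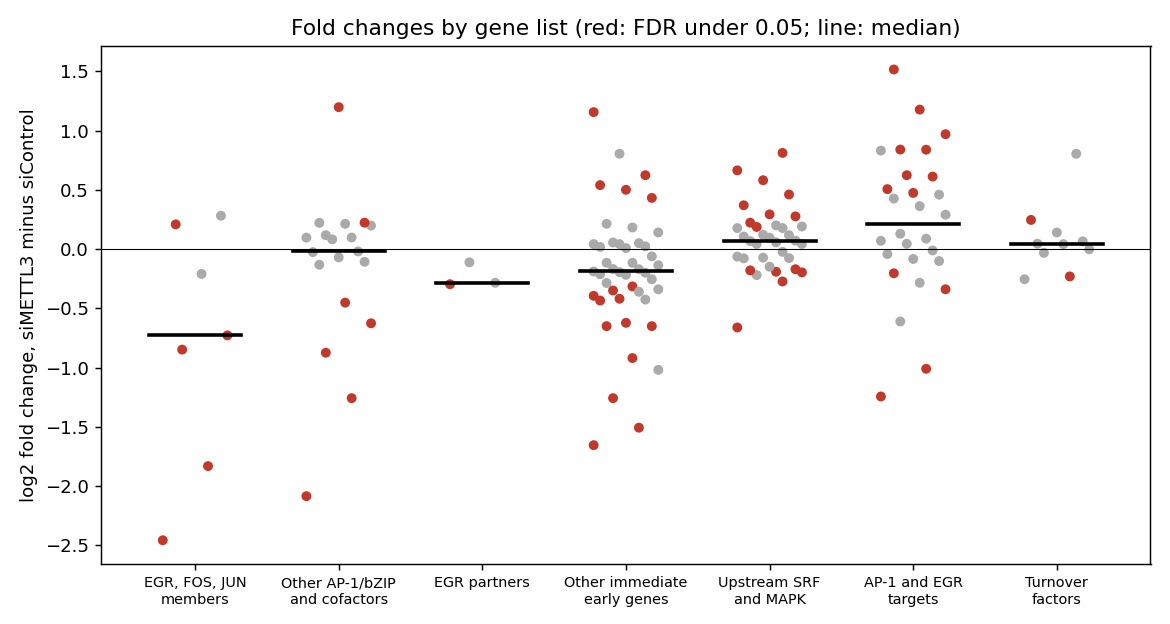
Log2 fold change of siMETTL3 against siControl (y axis) for each tested gene (points) of the EGR, FOS and JUN members and of the 6 gene lists (x axis), red for an edgeR FDR under 0.05, with a black line at each median. The other immediate early genes lie on both sides of 0, from CEBPD (-1.65, picked out after its value was seen) to NR4A3 (1.16).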

How the data were processed

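Each library came with 1 deposited table of whole-number read counts per gene, made by the authors with featureCounts 1.5.3 on GRCh38 with GENCODE release 33 protein-coding genes, per the file headers. Per those headers, reads were counted over whole gene spans without strand and a read in overlapping genes was counted for each. The submitters' processing notes also name FastQC 0.11.5, Trimmomatic 0.36, HISAT2 2.1.0 and Subread 1.5.3.

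From these counts, edgeR 4.0.16 (R 4.3.3) was run here with TMM scaling, filterByExpr and the robust quasi-likelihood test of siMETTL3 against siControl on the 6 libraries, with Benjamini-Hochberg adjustment over all 15311 tested genes and a threshold of 0.05. The filter asked for about 10 counts at the median library in 3 libraries. CPM values, SD and log2 fold changes are relative to TMM-scaled library sizes. The test was checked on simulated counts. The 15 alternatives covered scaling, filters, DESeq2 1.42.0, limma-voom (limma 3.58.1), the robust option, a replicate block and leaving out each library. The 10 genes and the gene lists were chosen with earlier results of these data known. Genes named beside the members were JUND, ATF3, NAB1, NAB2, SRF and ELK1, up to 3 genes per list and direction with the smallest adjusted p, and the 3 genes most correlated with EGR1 and FOS at an average log2 CPM of at least 3. Transcript lengths and GGACT counts are from GENCODE release 44, used for names and lengths only. Promoters are RefSeq windows (GRCh38.p14). MAPK10, in the list of upstream genes, was not analysed here. The summed level of the neuroblastoma markers is not reported here.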

Additional observations from a re-analysis of the deposited data

How the results depend on the processing

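EGR1, FOSB, JUN and METTL3 kept their direction and their call in every alternative that tested them; FOSB was not tested when 10 counts were asked for in every library. FOS lost its call with RLE size factors (-0.73, FDR 0.0503), upper-quartile scaling (-0.71, 0.0538), total counts (-0.70, 0.0587), limma-voom (-0.74, 0.0543) and no robust option (-0.73, 0.0545), and leaving out 1 library gave -0.93 to -0.49. Leaving out 1 library gave 0.17 to 0.25 for FOSL2, with the call lost in 4 of 6 fits, so the number of members called higher went from 0 to 1. For FOSL1 it gave -0.11 (without siControl replicate 3) to 0.66. It gave 1 to 4 higher AP-1 and bZIP factors, 1 to 2 lower EGR partners, 1 to 7 lower upstream genes (3 with total counts), and 0 to 1 lower and 1 to 3 higher turnover genes. ELK1 went from -0.15 to 0.026, above 0 without siControl replicate 3 (0.013) or siMETTL3 replicate 1. By span length, 5 members changed place in the order of levels. The number of genes called went from 4210 to 6394. The share of higher calls was 49.2% with TMM and 53.9% with total counts. With a replicate block, 6166 genes were called, EGR1 was at -1.82, FOSB at -2.46, JUN at -0.85 and FOS at -0.74, and no member's call changed, while SRF passed the threshold (FDR 0.0393). Equal numbers did not pair the libraries: deviations correlated at 0.040, 0.049 and 0.067 within a number and from -0.064 to 0.026 across numbers. Where a call was lost without a library, 1 group held 2 libraries; otherwise the cause was not tested. Depth limits EGR2, EGR3 and EGR4, with at most 16 counts in a group.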
